A study of Homo sapiens with 12 samples.

Results

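The 50 genes described here encode developmental transcription factors of 9 families (PAX, GATA, TBX, IRX, DLX, LHX, MSX, EN and the sine oculis homeobox genes SIX2 to SIX6) that are textbook targets of Polycomb repression. The members are given by gene name, and all 50 were found among the 26475 genes of the deposited count table. Of the 50, 34 had enough counts to be tested for differences and 16 did not, and these 16 are given as counts. Whether a given gene carries the Polycomb mark in the cells studied here was not measured.

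RNA was sequenced from A375 cells, a human melanoma line with an activating BRAF mutation, kept for 24 h with both GSK343 and XL413, with GSK343 alone, with XL413 alone, or with the solvent DMSO. Each compound was used at 1 µM, alone and in the combination. GSK343 inhibits EZH2, the histone methyltransferase of Polycomb repressive complex 2, and XL413 inhibits CDC7, the kinase that helps to start DNA replication. There were 3 libraries in each of the 4 groups, described by the submitters as biological replicates, and 12 libraries in all. All of them came from 1 cell line at 1 time and 1 concentration of each compound.

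Polycomb repressive complex 2 methylates lysine 27 of histone H3, and the methylated chromatin keeps many regulators of embryonic patterning silent in cells that do not use them. The starts of such genes usually lie in long stretches rich in CpG dinucleotides. In the neural crest, from which melanocytes arise, several of these genes are normally active instead: PAX3 helps to specify melanocytes, MSX and DLX genes pattern the crest of the head, and TBX2 and TBX3 act as repressors that restrain senescence in melanoma cells.

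The libraries held 31553205 to 39079931 counts. The cells expressed SOX10, a regulator of neural crest and melanocyte cells, at a mean of 332 CPM (counts scaled to a common library total) and the melanocyte regulator MITF at 42.3 CPM, while the pigment enzyme gene TYR had no count in any library. Of the other melanocyte markers, S100B averaged 24.4 CPM, and PMEL, TYRP1, MLANA and DCT averaged 0.688, 0.293, 0.104 and 0.0775 CPM. The 5 fibroblast markers summed to 96.5 to 175 CPM in the libraries and the 5 epithelial markers to 64.8 to 79.6 CPM. Summed over 5 leukocyte markers the level was 42.5 to 49.3 CPM, nearly all from the lysosomal gene CD68, and the leukocyte marker PTPRC averaged 0.0309 CPM. Of the marker genes tested, SOX10 (-0.16, adjusted p of 0.0277 by edgeR) and the undifferentiated melanoma marker AXL (-0.13, 0.0460) were lower and the fibroblast marker LUM (0.24, 0.0468) was higher with GSK343 averaged over both backgrounds. Between the combination and DMSO, AXL (-0.48, 0.000178) and SOX9 (-0.36, 0.0253), which is also a marker of undifferentiated melanoma, were lower and LUM (0.30, 0.0436) was higher by edgeR. With XL413 averaged over both backgrounds, MITF (-0.20, 0.0129), AXL (-0.36, 0.000150) and SOX9 (-0.34, 0.0109) were lower and the epithelial marker KRT8 (0.13, 0.0275) was higher by edgeR. The part of these marker differences in the results below, those for EN1 and MSX1 included, was not tested. EZH2 itself averaged 87.4 ± 1.49 CPM with both compounds, 88.4 ± 1.97 CPM with GSK343, 90.5 ± 2.64 CPM with XL413 and 96.8 ± 3.58 CPM with DMSO (SD, n = 3 each), and GSK343 acts on the enzyme, so its RNA does not check the treatment. The second library of the combination stood apart. Its values deviated from the mean of the other libraries of its group with an SD of 0.267 on the log2 scale, against 0.0902 to 0.166 in the other 11 libraries. The 0.148 and 0.166 of combination replicates 1 and 3 were measured partly against it. Its deviations also followed transcript length, with a Spearman correlation of -0.672. In the other 11 libraries this correlation ran from -0.486 in GSK343 replicate 1 to 0.597 in combination replicate 3, with 0.562 in GSK343 replicate 3. Fits with a GC content and length offset are given at the end. Calls of members that depend on the second combination library are also given without it, and those of the gene lists as counts. Leaving it out moved the share of all tested genes called by edgeR to 6.15% between GSK343 and DMSO, 12.9% for the averaged GSK343 effect, 15.0% between the combination and DMSO and 13.8% for the averaged XL413 effect, against 1.17%, 6.55%, 13.9% and 9.12% with it. Without this library, 0 fibroblast markers were called for the averaged GSK343 effect or between the combination and DMSO. The LUM calls were thus lost. In each of these comparisons 1 epithelial marker was lower, and 1 was lower between GSK343 and DMSO too. Between the combination and DMSO, 1 undifferentiated melanoma marker was higher and 2 were lower.

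Sequence before the RefSeq gene start (GRCh38.p14) was available for 33 of the 50 genes. By the GENCODE 29 positions used for the members, some of these stretches lie inside the gene, those of LHX2 and TBX4 among them. The shares below include them. A stretch was called CpG rich when its ratio of observed to expected CpG dinucleotides was over 0.6 and its GC content over 50%. Of the 33 windows of 250 bases, 27 were CpG rich (81.8%), against 57.7% of the windows of 16199 genes of the count table. Members above and below the count filter had similar shares: 19 of 23 tested members with a window (82.6%) and 8 of 10 members below the filter (80%) were CpG rich. The stretches before MSX1, EN2, LHX8 and IRX1 are shown as examples. MSX1 was the member that was higher with XL413, and of these genes it alone was called different in a comparison. EN2 is the paralog of EN1, the member that was lower with the combination, for which no window was available. LHX8 was the tested member with the highest estimate for the averaged GSK343 effect, and IRX1 the member with the most counts below the filter. The stretches are the windows chr4:4859415-4859664, chr7:155457879-155458128, chr1:75128184-75128433 and chr5:3595582-3595831, all on the plus strand, and capitals mark CpG dinucleotides.
MSX1: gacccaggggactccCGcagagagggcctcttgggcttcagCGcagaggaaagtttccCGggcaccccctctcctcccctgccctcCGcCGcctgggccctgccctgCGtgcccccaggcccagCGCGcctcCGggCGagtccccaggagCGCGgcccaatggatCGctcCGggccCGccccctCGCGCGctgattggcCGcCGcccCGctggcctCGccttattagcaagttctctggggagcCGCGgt
EN2: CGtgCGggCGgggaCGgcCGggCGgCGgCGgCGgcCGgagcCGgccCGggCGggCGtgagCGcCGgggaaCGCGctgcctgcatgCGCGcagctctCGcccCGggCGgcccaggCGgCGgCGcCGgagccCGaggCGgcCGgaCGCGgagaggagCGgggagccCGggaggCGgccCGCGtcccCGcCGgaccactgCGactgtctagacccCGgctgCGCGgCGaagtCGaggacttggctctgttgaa
LHX8: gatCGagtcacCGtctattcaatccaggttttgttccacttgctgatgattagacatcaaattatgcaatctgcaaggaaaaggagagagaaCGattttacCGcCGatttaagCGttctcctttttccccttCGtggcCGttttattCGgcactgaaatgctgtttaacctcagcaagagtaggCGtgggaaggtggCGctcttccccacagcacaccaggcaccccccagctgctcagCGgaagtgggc
IRX1: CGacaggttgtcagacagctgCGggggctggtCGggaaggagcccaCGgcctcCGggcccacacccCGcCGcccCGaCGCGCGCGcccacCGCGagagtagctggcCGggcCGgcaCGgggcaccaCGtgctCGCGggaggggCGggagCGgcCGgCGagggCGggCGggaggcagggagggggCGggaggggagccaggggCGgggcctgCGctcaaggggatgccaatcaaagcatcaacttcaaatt
The EN2 window holds 45 CpG dinucleotides, the highest number among the 33, and EN2 was expressed. The IRX1 window holds 29 and the MSX1 window 24, although IRX1 was close to silent and MSX1 was among the most expressed members. The LHX8 window holds 12, near the low end of the 10 to 45 found among the members.

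Levels in A375 cells differed widely between members of the same family. Between genes, levels are compared as CPM per kb of the longest annotated transcript, averaged over the 12 libraries. DLX1, a homeodomain factor of forebrain interneurons and the facial arches, had 12.7 CPM per kb, MSX1 12.7 and TBX3 12.5. Among the levels of the 15443 tested genes, DLX1 stood at percentile 67.7 and TBX3 at percentile 67.4. Next came TBX2 with 7.62 CPM per kb, SIX5 with 7.19, LHX1 with 4.67, GATA2 with 4.61, IRX3 with 4.52, PAX3 with 3.95 and EN2 with 2.57. Of the summed level of all 50 genes, the T-box family gave 24.2%, the DLX family 16.7% and the MSX family 15.3%, and the EN family gave the least with 3.84%. On the CPM scale, 11 members averaged at least 10 CPM, 16 lay between 1 and 10 CPM, 7 tested members were under 1 CPM, 14 had some counts but were below the filter, and PAX1 and LHX5 had no count in any library.

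**Figure D1:**
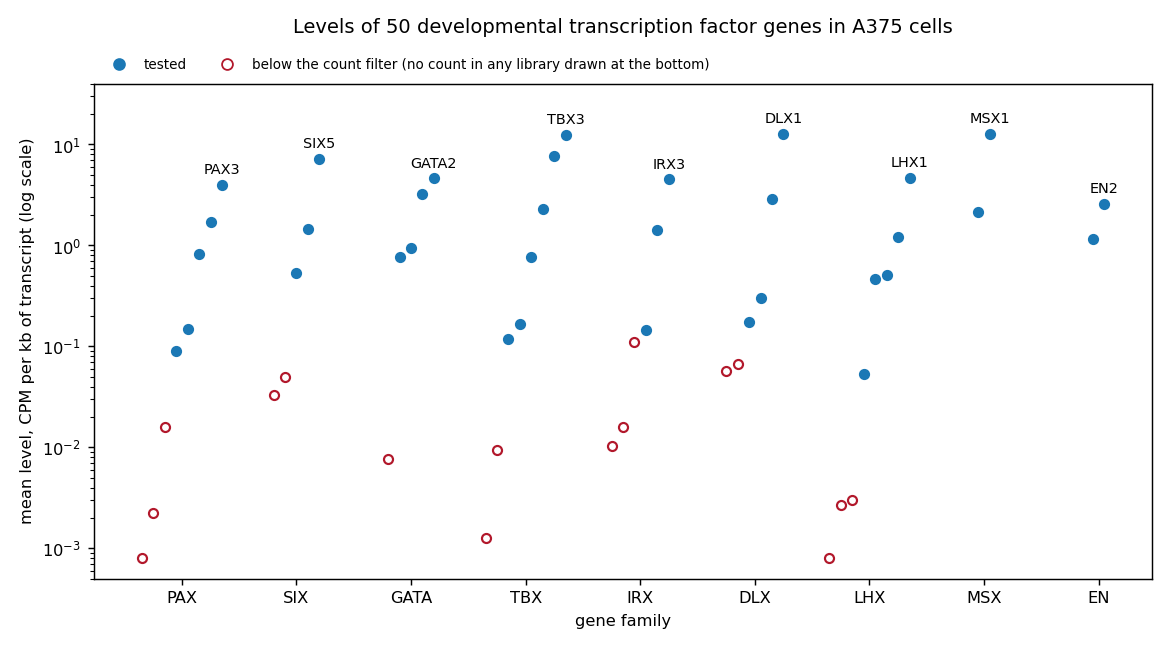
Mean level of each of the 50 genes over 12 libraries in CPM per kb of transcript, on a log scale, by family. Filled points are the 34 tested genes and open points the 16 below the count filter. Every family except MSX and EN holds both kinds, and DLX1, MSX1 and TBX3 are highest, near 12.7 CPM per kb.

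Levels also differed widely between some genomic neighbours. TBX2 and TBX4 lie 42.9 kb apart on chromosome 17, with 7.62 CPM per kb for TBX2 and 0.00941 for TBX4, a hindlimb regulator. TBX3 and TBX5, a heart and forelimb regulator, lie 262 kb apart on chromosome 12, with 12.5 CPM per kb for TBX3 and 0.00126 for TBX5. The IRX genes, which pattern heart and nervous system, sit in clusters on chromosomes 16 and 5. The cluster on chromosome 16 held all tested members of the family, with IRX3 at 4.52, IRX5 at 1.41 and IRX6 at 0.144 CPM per kb. The cluster on chromosome 5 held IRX1, IRX2 and IRX4, all below the filter. The DLX1 and DLX2 pair, 9.76 kb apart on chromosome 2, was expressed at 12.7 and 2.91 CPM per kb, while DLX5 was below the filter and its neighbour DLX6 reached 0.174 CPM per kb.

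With the EZH2 inhibitor, none of the 34 tested members was called higher or lower, whether GSK343 was given alone or on top of XL413. A gene was called when its adjusted p was under 0.05 in edgeR's quasi-likelihood test, two-sided, with Benjamini-Hochberg adjustment over all 15443 tested genes. Between GSK343 and DMSO, 1.17% of all tested genes were called, 4 members (against 14.3% of all tested genes) had an unadjusted p under 0.05, and the smallest adjusted p of a member was 0.207, for IRX3, by edgeR. When GSK343 was added to XL413, 0.784% of all tested genes were called, 1 member (against 15.0%) had an unadjusted p under 0.05, and the smallest adjusted p of a member was 0.249, for LHX8, by edgeR. DESeq2 and limma-voom also called 0 members in each of these comparisons. DESeq2 gave no adjusted p for EN1 when GSK343 was added to XL413. Members without an adjusted p were counted as not called, so the DESeq2 result covers only members with one.

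Averaging the GSK343 effect over the cells without and with XL413 gave the narrowest intervals. In that comparison 6.55% of all tested genes were called but 0 of 34 members by edgeR, DESeq2 or limma-voom, and 8 members had an unadjusted p under 0.05, against 22.9% of all tested genes. The estimates were above 0 for 14 members and below 0 for 20, with a median log2 fold change of -0.01 against 0.00 over all tested genes. The estimates ran from -0.33 for TBX20, a heart regulator, to 0.44 for LHX8. The 95% interval lay wholly inside a 1.5-fold change in either direction for 25 members and inside a 2-fold change for all 34. Its upper end was under 1.5-fold for 29 members. The widest intervals belonged to members with few counts, such as IRX6 with a log2 fold change of -0.10 and an interval of -0.76 to 0.55. Because the RNA came from whole cultures, a change in every cell and a change in the share of cells that express a gene cannot be told apart.

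**Figure D2:**
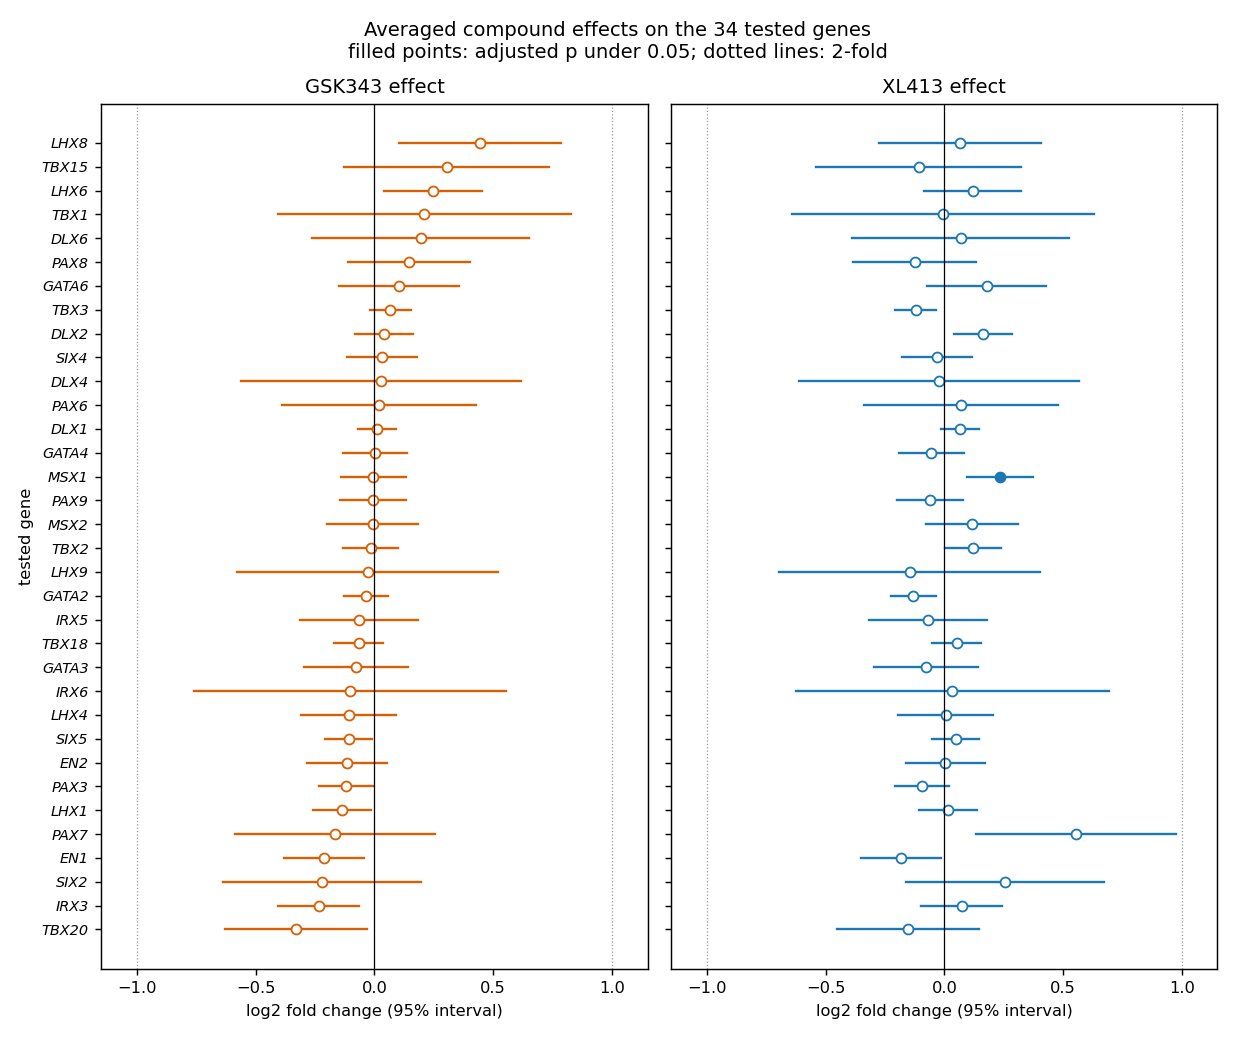
Log2 fold changes (points) with 95% intervals (bars) of the 34 tested genes for GSK343 and for XL413, each averaged over the cells without and with the other compound. Filled points had an adjusted p under 0.05, and dotted lines mark a 2-fold change. All 34 GSK343 intervals lie inside the 2-fold lines with no filled point, and MSX1 is the filled point for XL413.

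The GSK343 effects without and with XL413 share no library, so their directions can be set side by side. Of the 34 tested members, 19 had estimates of the same sign in both (7 above 0 and 12 below 0), which is 55.9%, against 66.6% of all tested genes. For XL413, measured without and with GSK343, 22 members had the same sign in both (64.7%), against 69.9% of all tested genes.

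Libraries of a few members separated from each other without a call. All 3 GSK343 libraries were above all 3 DMSO libraries for TBX3 and LHX6, and all 3 were below for IRX3, TBX20 and EN1, where 11.2% and 14.0% of all tested genes did so. When GSK343 was added to XL413, LHX6 and LHX8 separated upward and LHX1 and EN2 downward, where 10.0% and 9.84% of all tested genes did so.

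EN1, a homeodomain repressor of the midbrain and hindbrain boundary and of limb and sweat gland development, was the member that was lower with the combination. EN1 lies on the minus strand of chromosome 2 at 118842171 to 118847678 (GENCODE 29, GRCh38). It had 2.73, 2.39 and 2.49 CPM with GSK343+XL413, 2.63, 2.82 and 2.67 CPM with GSK343, 2.98, 2.69 and 2.62 CPM with XL413, and 3.30, 3.17 and 3.52 CPM with DMSO. All 9 treated libraries were below all 3 DMSO libraries, which was so for EN1 alone among the 34 members and for 4.62% of all tested genes. No member had all 9 treated libraries above DMSO, as 2.16% of all tested genes did. The log2 fold change of GSK343+XL413 over DMSO was -0.40 ± 0.11 (SE), with an interval of -0.63 to -0.16 and an adjusted p of 0.0310 by edgeR. The same comparison called 13.9% of all tested genes, and 7.25% of all tested genes in the lower direction, against 1 of 34 members, and 8 members had an unadjusted p under 0.05, against 30.4% of all tested genes. EN1 was not called with GSK343 alone, at a log2 fold change of -0.30 and an adjusted p of 0.220 by edgeR, nor with XL413 alone, at -0.27 and 0.296. The call was lost when any of 5 libraries was left out: the adjusted p by edgeR was 0.0731, 0.0627 and 0.0998 without DMSO replicate 1, 2 and 3 and 0.0949 and 0.0572 without combination replicate 2 and 3. DESeq2 gave an adjusted p of 0.0752 for EN1.

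The paralog EN2, which acts with EN1 in the hindbrain, had 8.12, 8.59 and 8.14 CPM with GSK343+XL413, 8.65, 9.55 and 7.20 CPM with GSK343, 9.77, 8.95 and 8.86 CPM with XL413, and 7.93, 8.68 and 10.2 CPM with DMSO. Its groups overlapped, except that the combination was below XL413 alone in all libraries. The log2 fold change of GSK343+XL413 over DMSO was -0.11 for EN2, with an interval of -0.35 to 0.13.

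MSX1, a homeodomain factor of the cranial neural crest that keeps progenitor cells undifferentiated, was the member that was higher with XL413. MSX1 lies on the plus strand of chromosome 4 at 4859666 to 4863936 (GRCh38). It had 27.7, 30.0 and 23.2 CPM with GSK343+XL413, 22.9, 23.4 and 19.9 CPM with GSK343, 27.7, 25.6 and 24.8 CPM with XL413, and 21.8, 24.2 and 23.0 CPM with DMSO. All 3 XL413 libraries were above all 3 DMSO libraries, while the combination and GSK343 overlapped by 1 library. Averaged over the cells without and with GSK343, the log2 fold change with XL413 was 0.23 ± 0.064 (SE), with an interval of 0.10 to 0.37 and an adjusted p of 0.0382 by edgeR. That comparison called 9.12% of all tested genes, and 4.71% of all tested genes in the higher direction, against 1 of 34 members, and 7 members had an unadjusted p under 0.05, against 27.2% of all tested genes. The averaged effect of GSK343 on MSX1 was 0.00 on the log2 scale, with an interval of -0.14 to 0.13. Without the second combination library, which had the highest value, the XL413 effect was 0.20 with an adjusted p of 0.0318 by edgeR. The call also held without GSK343 replicate 1 or combination replicate 3 and was lost when any of the other 9 libraries was left out, with adjusted p-values by edgeR of 0.0575 to 0.0951. MSX2, its paralog, was at 0.12 on the same scale for XL413, with an interval of -0.08 to 0.31.

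**Figure D3:**
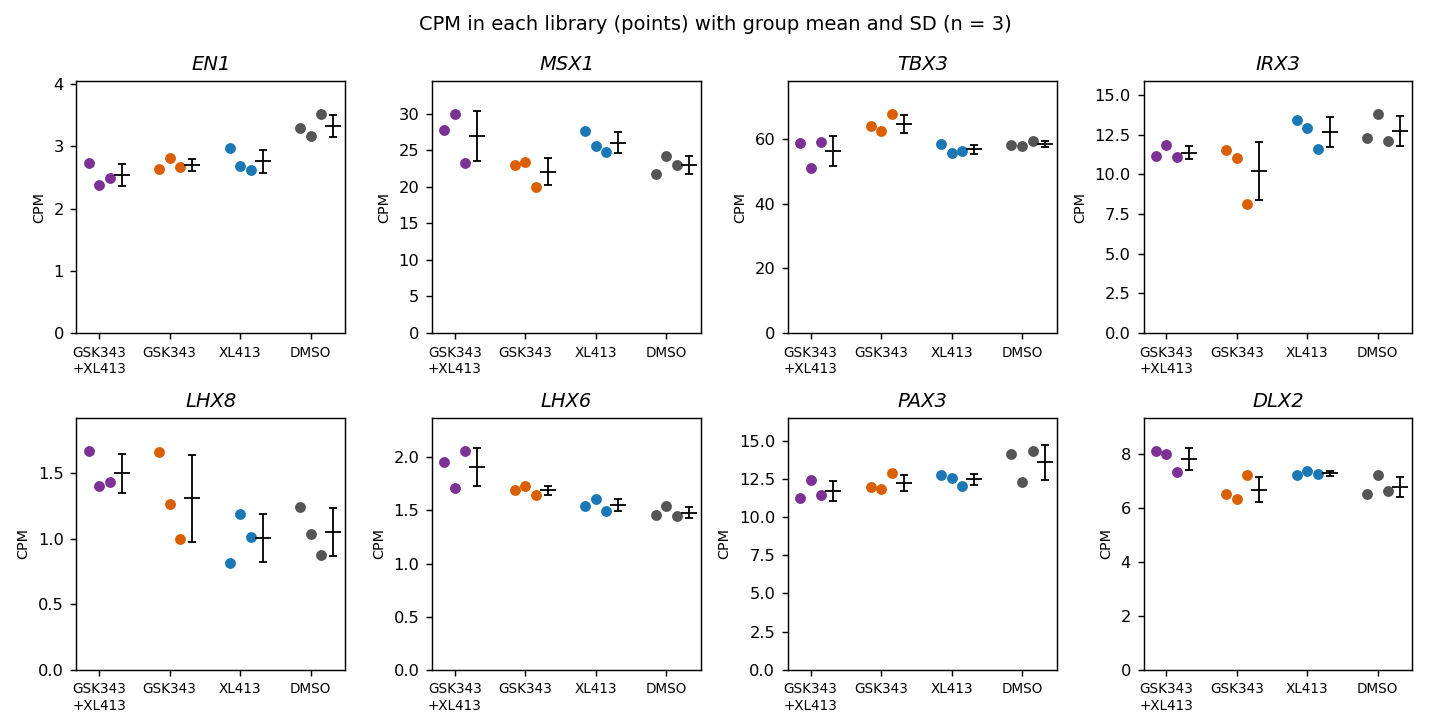
CPM in each library (points) with group means and SD (bars, n = 3) for EN1, MSX1, TBX3, IRX3, LHX8, LHX6, PAX3 and DLX2, in the order GSK343+XL413, GSK343, XL413 and DMSO. The 9 treated EN1 points lie below the 3 DMSO points of 3.17 to 3.52 CPM, and the second combination library is lowest for TBX3 at 51.0 CPM and highest for MSX1 at 30.0 CPM.

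Among the T-box genes, TBX3 had 58.9, 51.0 and 59.3 CPM with GSK343+XL413, 64.2, 62.4 and 67.9 CPM with GSK343, 58.5, 55.9 and 56.4 CPM with XL413, and 58.2, 57.8 and 59.4 CPM with DMSO. The 3 GSK343 libraries were the highest of the 12. The log2 fold change of GSK343 over DMSO was 0.15, with an interval of 0.03 to 0.27 and an adjusted p of 0.243 by edgeR. Without the second combination library, where TBX3 was lowest, the estimate was 0.15 and the adjusted p was 0.0254 by edgeR, in a fit that called 6.15% of all tested genes in that comparison. On top of XL413 the log2 fold change of GSK343 was -0.01, with an interval of -0.14 to 0.11, and the difference between the effects without and with XL413 was not called (adjusted p of 0.989 by edgeR). The combination was below GSK343 alone in all libraries, at a log2 fold change of -0.20 with an adjusted p of 0.0951 by edgeR and 0.0362 by DESeq2. Without the second combination library this difference was -0.13 with an adjusted p of 0.125 by edgeR. TBX20, named after its values were seen, was at -0.33 ± 0.139 (SE) for the averaged GSK343 effect, with an adjusted p of 0.174 by edgeR, and at -0.23 with an adjusted p of 0.274 without the second combination library. The other tested T-box genes had averaged GSK343 effects between -0.07 for TBX18 and 0.30 for TBX15, none of them called.

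IRX3, a regulator of neural and limb patterning, had 11.2, 11.9 and 11.1 CPM with GSK343+XL413, 11.5, 11.04 and 8.15 CPM with GSK343, 13.4, 12.9 and 11.6 CPM with XL413, and 12.3, 13.8 and 12.1 CPM with DMSO. The 3 GSK343 libraries were below the 3 DMSO libraries, and replicate 3 was the lowest of the 12. The averaged GSK343 effect was -0.23 ± 0.079 (SE) on the log2 scale, with an interval of -0.40 to -0.06 and an adjusted p of 0.0963 by edgeR, the smallest of any member. IRX5 was at -0.06 on the same scale.

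The LHX genes encode LIM-homeodomain factors, which work with LDB partners. LHX1, a regulator of the head organiser and kidney, had 15.6, 15.3 and 15.01 CPM with GSK343+XL413, 16.4, 14.2 and 15.1 CPM with GSK343, 17.7, 16.9 and 16.2 CPM with XL413, and 17.4, 17.9 and 14.6 CPM with DMSO. The combination was below XL413 in all libraries, whereas GSK343 and DMSO overlapped, and the averaged GSK343 effect was -0.14 with an adjusted p of 0.164 by edgeR. LHX6 and LHX8, regulators of forebrain neurons that were named after their values were seen, had the highest averaged GSK343 estimates of the family. LHX8 had 1.67, 1.401 and 1.43 CPM with GSK343+XL413, 1.66, 1.27 and 0.998 CPM with GSK343, 0.817, 1.19 and 1.01 CPM with XL413, and 1.24, 1.04 and 0.873 CPM with DMSO. The combination was above XL413 and above DMSO in all libraries, while GSK343 alone overlapped DMSO. The averaged GSK343 effect on LHX8 was 0.44 ± 0.158 (SE), with an interval of 0.10 to 0.78 and an adjusted p of 0.112 by edgeR. LHX6 averaged 1.91 ± 0.18 CPM with GSK343+XL413, 1.69 ± 0.04 CPM with GSK343, 1.55 ± 0.056 CPM with XL413 and 1.48 ± 0.053 CPM with DMSO (SD, n = 3 each). Its averaged GSK343 effect was 0.25 with an adjusted p of 0.159 by edgeR.

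PAX3 had 11.3, 12.5 and 11.4 CPM with GSK343+XL413, 12.003, 11.9 and 12.9 CPM with GSK343, 12.8, 12.6 and 12.1 CPM with XL413, and 14.1, 12.3 and 14.4 CPM with DMSO. The second DMSO library lay among the treated libraries, so each treated group overlapped DMSO. The log2 fold change of GSK343+XL413 over DMSO was -0.21, with an interval of -0.37 to -0.06 and an adjusted p of 0.0688 by edgeR. Without that DMSO library the adjusted p was 0.0406, and without the second combination library it was 0.0403, both by edgeR. PAX7, a paralog used in muscle stem cells, had the highest averaged XL413 estimate of the 34 members at 0.55 ± 0.195 (SE), at 0.331 to 0.716 CPM, with an adjusted p of 0.0881 by edgeR.

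SIX5, the highest member of a family that acts with EYA coactivators, averaged 23.6 ± 1.01 CPM with GSK343+XL413, 22.3 ± 0.255 CPM with GSK343, 24.9 ± 1.33 CPM with XL413 and 24.7 ± 2.14 CPM with DMSO (SD, n = 3 each). All 3 GSK343 libraries were below all 3 XL413 libraries for SIX5, and each treated group overlapped DMSO. GATA2, a zinc finger factor of blood stem cells, averaged 14.5 ± 0.118 CPM with GSK343+XL413, 16.2 ± 0.976 CPM with GSK343, 15.1 ± 0.702 CPM with XL413 and 16.3 ± 0.659 CPM with DMSO (SD, n = 3 each). The combination was below GSK343 and below DMSO in all libraries for GATA2, and the averaged XL413 effect was -0.13 with an adjusted p of 0.0744 by edgeR. GATA4, a heart and endoderm factor, was expressed at 11.1 CPM, with an averaged GSK343 effect of 0.00 on the log2 scale.

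DLX1 averaged 34.6 ± 1.14 CPM with GSK343+XL413, 32.6 ± 0.685 CPM with GSK343, 33.8 ± 1.82 CPM with XL413 and 32.8 ± 1.37 CPM with DMSO (SD, n = 3 each). Its averaged GSK343 effect was 0.01 on the log2 scale, with an interval of -0.07 to 0.09. Its neighbour DLX2 averaged 7.82 ± 0.422 CPM with GSK343+XL413, 6.68 ± 0.464 CPM with GSK343, 7.28 ± 0.0871 CPM with XL413 and 6.78 ± 0.37 CPM with DMSO (SD, n = 3 each). DLX2 separated upward with XL413 both without and with GSK343, and its averaged XL413 effect was 0.16 with an adjusted p of 0.0842 by edgeR.

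The remaining comparisons gave few or no calls among the members. Between XL413 and DMSO, 0 of 34 members were called by edgeR, DESeq2 or limma-voom and 1 had an unadjusted p under 0.05 (13.7% of all tested genes), where 0.427% of all tested genes were called. When XL413 was added to GSK343, 0 members were called by edgeR and by limma-voom, DESeq2 called TBX3, and 5 had an unadjusted p under 0.05 (20.4% of all tested genes), where edgeR called 0.984% of all tested genes. All 3 libraries separated upward for DLX2 and MSX1 and downward for EN1 between XL413 and DMSO, where 11.9% and 16.2% of all tested genes did so. With XL413 added to GSK343 they separated upward for PAX7, DLX1 and DLX2 and downward for GATA2 and TBX3, where 10.5% and 10.8% did so. With the combination against DMSO, TBX2, DLX2, LHX6 and LHX8 separated upward and GATA2, TBX20, IRX3 and EN1 downward, where 16.3% and 17.4% did so. The difference between the GSK343 effects with and without XL413 was called for 0 members and 0 genes by edgeR and for 0 members by DESeq2 and limma-voom, with 0 members but 413 genes (2.67%) at an unadjusted p under 0.05, and DESeq2 called 2 genes.

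The 16 members below the filter stayed near 0 in all groups. Their summed counts were 35, 34 and 35 in the GSK343+XL413 libraries, 37, 38 and 24 in the GSK343 libraries, 32, 28 and 18 in the XL413 libraries, and 28, 21 and 35 in the DMSO libraries. Every group overlapped DMSO. The group sums were 104 with GSK343+XL413 (exact Poisson 95% interval 85.0 to 126), 99 with GSK343 (80.5 to 121), 78 with XL413 (61.7 to 97.3) and 84 with DMSO (67.0 to 104), and these intervals cover counting error only. Scaled to depth, the 16 genes together averaged 0.990 ± 0.102 CPM with GSK343+XL413, 0.953 ± 0.265 CPM with GSK343, 0.779 ± 0.237 CPM with XL413 and 0.841 ± 0.216 CPM with DMSO (SD, n = 3 each). PAX1 and LHX5, with no count in 12 libraries, were under 0.0298 CPM in DMSO and under 0.0290 CPM in GSK343, the levels at which 3 counts would be found in a group.

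**Figure D4:**
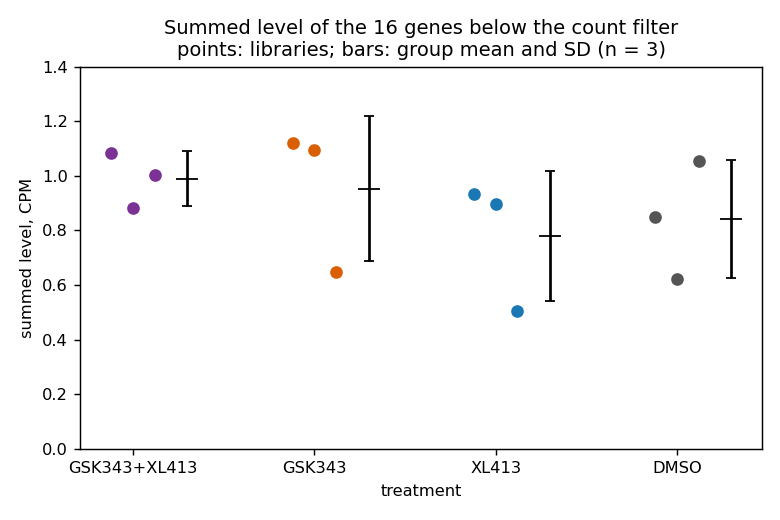
Summed CPM of the 16 genes below the count filter in each library (points), with group mean and SD (bars, n = 3). The libraries lie between 0.506 and 1.12 CPM, and each treated group overlaps DMSO.

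Of these 16, IRX1 had the most counts, with 24 in GSK343+XL413, 13 in GSK343, 22 in XL413 and 25 in DMSO. DLX3, a factor of skin and hair, had 12, 19, 14 and 16 counts in the same order of groups. SIX3, a regulator of forebrain and eye, had 24 counts in GSK343+XL413, 13 in GSK343, 6 in XL413 and 8 in DMSO. The 3 combination libraries were above the 3 XL413 libraries for SIX3 but overlapped DMSO. In a fit with no filter the log2 fold change of GSK343+XL413 over XL413 was 1.88 ± 0.762 (SE) for SIX3, with an adjusted p of 0.336 by edgeR. No member below the filter was called in that fit.

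Of 14 measured genes of Polycomb repressive complex 2 and the opposing demethylases, 0 were higher and 2 were lower with GSK343 averaged over both backgrounds: MTF2 at -0.13 ± 0.032 (SE; adjusted p of 0.0330 by edgeR) and PHF19 at -0.10 ± 0.025 (adjusted p of 0.0354), accessory subunits that help the complex to bind chromatin. That comparison called 6.55% of all tested genes. The median of the list was -0.05, against 0.00 over all tested genes. EZH2 was at -0.09 with an adjusted p of 0.0838 by edgeR, and CDC7 at 0.11 with 0.129 and DBF4, its partner, at 0.04 with 0.427 were not called either. With the combination against DMSO, 2 genes of the list were lower: EZH2 at -0.15 (adjusted p of 0.0329 by edgeR) and KDM6B, a demethylase of the Polycomb mark, at -0.50 ± 0.098 (SE; adjusted p of 0.00632 by edgeR). Without the second combination library KDM6B was at -0.39 with an adjusted p of 0.00485 by edgeR. With XL413 averaged over both backgrounds, KDM6B was the 1 gene of the list called, at -0.30 (adjusted p of 0.0204 by edgeR). Of 24 tested genes of Polycomb repressive complex 1, 1 was higher with GSK343 averaged over both backgrounds, PCGF5 at 0.13 ± 0.036 (SE; adjusted p of 0.0396 by edgeR), and 0 were lower. The median of that list was -0.04. With the combination against DMSO, 0 of the 24 were higher and 8 were lower, where 13.9% of all tested genes were called: BCOR, CBX2, CBX6, KDM2B, PCGF2, PHC1, PHC2 and USP7, at log2 fold changes between -0.33 for BCOR and -0.13 for PHC2. BCOR had 74.7, 56.2 and 75.2 CPM in the combination libraries, so its estimate leans on the second. Other genes of this list were lowest in that library too, such as PHC1 with 47.6, 40.4 and 49.0 CPM and KDM2B with 54.1, 49.7 and 54.1 CPM. Without the second combination library 6 of the 24 were lower by edgeR, where 15.0% of all tested genes were called. With XL413 averaged over both backgrounds, 0 were higher and 5 were lower (CBX2, CBX6, PHC1, RYBP and USP7), where 9.12% of all tested genes were called. CBX6, a reader of the Polycomb mark, had the smallest adjusted p of the list in both comparisons, with -0.28 (adjusted p of 0.00169 by edgeR) for the combination against DMSO and -0.22 (0.00144) for the averaged XL413 effect. The list medians were -0.10 and -0.07 in these comparisons, against 0.01 and -0.01 over all tested genes.

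Of 20 tested protein partners of the families, 2 were higher and 1 was lower with GSK343 averaged over both backgrounds, with a list median of 0.03 against 0.00 over all tested genes, where 6.55% of all tested genes were called. All 3 belong to the cofactor complex that binds LHX proteins. SSBP2, which stabilises LDB proteins, averaged 7.26 ± 0.566 CPM with GSK343+XL413, 6.97 ± 0.0682 CPM with GSK343, 6.52 ± 0.499 CPM with XL413 and 5.16 ± 0.185 CPM with DMSO (SD, n = 3 each). Its log2 fold change of GSK343 over DMSO was 0.43 ± 0.087 (SE; adjusted p of 0.0294 by edgeR), and it was the 1 partner called in that comparison. LDB2, an adaptor of LHX proteins, had 5, 5 and 12 counts in the GSK343+XL413 libraries, 13, 8 and 18 in the GSK343 libraries, 0, 2 and 1 in the XL413 libraries, and 4, 3 and 4 in the DMSO libraries. Its averaged GSK343 effect was 2.19 ± 0.453 (SE; adjusted p of 0.0139 by edgeR), and it rests on these few counts. LDB1, the more abundant adaptor at 58.7 CPM, was at -0.12 ± 0.033 (SE; adjusted p of 0.0403 by edgeR). With the combination against DMSO, 2 partners were higher, SSBP2 at 0.49 and the LIM-only protein gene LMO2 at 0.59, and 5 were lower: EYA3 at -0.20, LDB1 at -0.16, PBX2 at -0.15, and the corepressor genes TLE3 at -0.32 and TLE4 at -0.29. That comparison called 13.9% of all tested genes. With XL413 averaged over both backgrounds, LMO2 at 0.39 was higher, and TLE3 at -0.22 and TLE4 at -0.23 were among the partners that were lower, where 9.12% of all tested genes were called.

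Of 15 antisense or divergent transcripts beside the members, 10 were in the count table and 4 were tested, and 0 were called by edgeR in any of the 8 comparisons; the smallest adjusted p was 0.0772, for PAX8-AS1 and the averaged GSK343 effect, at an unadjusted p of 0.00727. The libraries kept strand, but the strand setting of the counting is not given in the sources used here, so reads of a member and of an overlapping antisense transcript cannot be told apart.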

How the data were processed

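Per the labels' protocols, poly-A RNA was made into strand-specific dUTP libraries. The deposited values are expected counts, estimates that are not scaled between libraries, made by the authors with RSEM 1.2.15 and Bowtie2 2.1.0 (genome build hg38), per the submitters' processing notes; annotation, strand setting, trimming and filters were not given in the sources used here. Reads shared by similar genes are divided by estimate, so values of close paralogs depend on that division.

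Expected counts were rounded and fitted for all 12 libraries in 1 model of 4 groups (8 residual degrees of freedom) with edgeR 4.0.16 in R 4.3.3, TMM scaling and filterByExpr (minimum count of 10, minimum total of 15), which left 15443 of 26475 genes. Of the 8 comparisons, 5 set a pair of groups against each other, 2 average a compound's effect over the cells without and with the other compound, and 1 is their interaction. An SE is the absolute log2 fold change divided by the square root of the F statistic; 95% intervals are not adjusted for the number of genes. CPM use the TMM effective library size. Gene positions and transcript lengths came from GENCODE 29. Genes were named in full when called, and with levels when highest in their family or, below the filter, among the 3 with most counts. Other members, such as DLX2, PAX7, GATA4, MSX2, TBX15 and TBX18, were named outside this rule with their values known. DESeq2 1.42.0, limma-voom (limma 3.58.1), other scalings and filters, a GC content and length offset, a replicate block and leave-outs were alternatives. In every comparison, a gene to which DESeq2 gave no adjusted p was counted as not called. The scripts were tested on simulated data. Members and lists were chosen with earlier results of these data known. Replicate pairs all differed beyond counting noise. The mean chi-square per gene was 26.4 and 31.5 for pairs with combination replicate 2 and 10.6 and 6.81 for pairs with GSK343 replicate 3. It was 2.33 to 4.54 for the other pairs.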

Additional observations from a re-analysis of the deposited data

How the results depend on the processing

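The number of members called between GSK343+XL413 and XL413, between XL413 and DMSO and in the interaction was 0 under all alternatives run. With the GC content and length offset, the number called was 1 between GSK343 and DMSO (TBX3, higher), 1 for the averaged GSK343 effect (IRX3, lower), 2 between GSK343+XL413 and DMSO (EN1 and PAX3, lower), 1 between GSK343+XL413 and GSK343 (TBX3, lower) and 3 for the averaged XL413 effect (MSX1 higher, GATA2 and TBX3 lower). Over all genes the offset also raised the calls, to 1074, 2332, 3017, 608 and 2276 of 14495 tested genes in these comparisons, from 180, 1012, 2152, 152 and 1408 of 15443, and the numbers of members stand beside that rise. With that offset and the replicate block together, it was 1 between GSK343 and DMSO, 2 for the averaged GSK343 effect (IRX3 and TBX3), 1 between GSK343+XL413 and GSK343 and 2 for the averaged XL413 effect, beside 738, 2128, 379 and 2087 of all genes. DESeq2 called 0 members between GSK343+XL413 and DMSO and 1 between GSK343+XL413 and GSK343 (TBX3). For the combination against DMSO the number was also 0 with no filter on low counts (EN1 adjusted p of 0.0542), with a filter of 5 CPM in 3 libraries, which removes EN1, and with the groups compared alone (0.0985). The cause of these moves was not tested. Leaving out 1 library at a time gave 0 to 1 members called between GSK343 and DMSO, 0 to 1 for the averaged GSK343 effect, 0 to 1 between GSK343+XL413 and DMSO, 0 to 1 between GSK343+XL413 and GSK343 and 0 to 2 for the averaged XL413 effect. For the combination against DMSO the member called was PAX3 instead of EN1 without DMSO replicate 2 or combination replicate 2, and MSX1 instead of EN1 without combination replicate 3. Over these leave-outs, TBX3 between GSK343+XL413 and GSK343 had log2 fold changes of -0.25 to -0.13 and adjusted p-values of 0.0537 to 0.292 by edgeR. Without combination replicate 2, the averaged GSK343 effect was called for 0 higher and 4 lower genes of the Polycomb repressive complex 2 list, 2 and 0 of the complex 1 list and 3 and 2 of the partners, and the combination against DMSO for 0 and 2, 0 and 6, and 3 and 3. The replicate numbers did not pair the libraries in every comparison, and correlations of same-numbered deviations ran from -0.277 to 0.408. Of 6 libraries, 5 correlated best with their own number between GSK343+XL413 and XL413 and 3 between GSK343+XL413 and GSK343. Between each treated group and DMSO, 0 did so. The replicate block alone changed no number of members called (EN1 adjusted p of 0.0480, MSX1 0.0237). Summed counts below the filter, as a ratio to DMSO, were 1.17 to 1.24 for GSK343+XL413, 1.13 to 1.18 for GSK343 and 0.926 to 0.929 for XL413. For members under 1 CPM, depth limits what could be seen.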
